A study of Mus musculus with 30 samples.

Results

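The arrays described here measured what an siRNA against lincRNA-p21 did to the mRNAs of mouse embryonic fibroblasts in the experiment named lincP21KD. They were chosen by their titles: 3 arrays named siLincP21 and 2 named siScramble, 5 of the 30 arrays analysed. The cells came from E13.5 embryos of mixed C57BL/6 x 129SvJ strain and carried p53 LSL/LSL, alleles that give no p53 before Cre recombinase acts on them. In every group of this experiment, controls included, AdenoCRE had been given for 24 h to restore p53, siRNA followed for 24 h, and 100 nM doxorubicin, a DNA-damaging drug, was then applied for 13 h. The control arrays are titled siScramble, and their treatment label names a pool of non-targeting siRNA. For comparison the text uses 3 arrays with siRNA against p53 (siP53) from the same experiment and 12 arrays of the hnRNPKKD experiment, in which the same cells, virus, drug dose and times were used with siRNA against lincRNA-p21, p53, hnRNP-K or a control, 3 arrays each. A time course of 10 arrays compared AdenoCre with AdenoGFP, a control virus, after 0, 1, 3, 6 and 9 h of 500 nM doxorubicin. All comparisons of siRNA were thus made in cells with restored p53 and damaged DNA, and no group received siRNA without the drug.

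LincRNA-p21 is a long non-coding RNA that p53 switches on and that is transcribed from the neighbourhood of Cdkn1a, the gene of the cell cycle inhibitor p21. The study text describes it as a mediator of gene repression in the p53 response, and hnRNP-K, an RNA-binding protein, is known as its partner in that role. The comparison of siLincP21 with siScramble therefore asks which genes change when this RNA is targeted while p53 is active.

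The 5 arrays gave log2 signal with medians of 5.546 to 5.571 over all probe sets, and each correlated with its own group at 0.9953 to 0.9979 over all tested genes. Over the tested genes the medians were 8.387, 8.394 and 8.402 with siLincP21 and 8.312 and 8.367 with siScramble. Each siLincP21 array was thus slightly brighter there than either control array. The labels do not say whether arrays of a group came from separate cultures, so the p-values below measure the spread between these arrays, which may be technical. The probe table names no probe set for lincRNA-p21 or p53, which are not analysed here. How far the siRNA reduced its target could thus not be judged, and every change below is a change with this siRNA. Fibroblast markers were high, with a median log2 level of 11.58 over 17 genes on the siScramble arrays against 8.34 over all tested genes, while the median of each of the other 7 marker lists lay between 5.12 and 6.58. In bulk RNA, fewer cells of a type and less RNA per cell cannot be told apart.

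With siLincP21, 947 of 12674 tested genes rose and 556 fell at an adjusted p below 0.05 (limma, Benjamini-Hochberg), which is 7.47% and 4.39% of the genes and 11.9% together. These shares are the background for each count of genes called with siLincP21 against siScramble, and other comparisons have their own, given where they are first used. Most changes were small: the smallest called difference was 0.25 on the log2 scale, and 49 called genes (0.387%) differed at least 2-fold, 30 higher (0.237%) and 19 lower (0.15%). The 3 siLincP21 arrays lay outside the range of the 2 siScramble arrays for 45.6% of all tested genes, above it for 25.4% and below it for 20.2%, so a gap between the groups is common here. As a description of the called genes, those that rose had median differences of 0.47, 0.41 and 0.51 in siLincP21 replicates 1, 2 and 3, and those that fell -0.51, -0.37 and -0.48, but the genes were called on these same arrays. The count rests on the 2 control arrays. Without siScramble replicate 1, 286 genes were called, without siScramble replicate 2, 511, and without siLincP21 replicate 1, 798. The split also depends on scaling: the deposited values gave 63% of calls higher, and arrays centred on their medians gave 45.7%.

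The 12 genes with the largest rises had varied functions, and 4 that act on or in the matrix are given first. Reck, a membrane-bound inhibitor of matrix metalloproteinases, had log2 signals of 8.83, 8.54 and 9.09 with siLincP21 and 7.18 and 7.26 with siScramble. It rose by 1.60 ± 0.13 (SE, adjusted p = 0.000383), with a wide gap between the groups. Antxr2, a receptor that binds collagen and laminin, rose by 1.57 ± 0.14 from 7.79 and 8.36 to 9.65, 9.59 and 9.68. The control arrays of Antxr2 differed more from each other than its 3 knockdown arrays did. Mmp13, a collagenase, rose by 1.33 ± 0.21, with values of 7.86, 7.18 and 8.08 against 6.51 and 6.23. Col11a1, a chain of a fibrillar collagen, rose by 1.39 ± 0.09, from 8.60 and 8.57 to 10.02, 9.90 and 10.02. That these genes were higher on each siLincP21 array than on either control array follows from the rule by which they were chosen.

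Dpyd, the first enzyme of pyrimidine breakdown, rose by 1.55 ± 0.22 with values of 7.77, 7.55 and 8.28 against 6.20 and 6.43, and its other probe sets gave 1.08 and 0.11. Trib3, a pseudokinase induced in amino acid stress, stood at 8.78, 8.84 and 9.78 against 7.72 and 7.66, a rise of 1.44 ± 0.24. Chac1, an enzyme that degrades glutathione, stood at 10.30, 10.10 and 10.87 against 8.82 and 9.23, a rise of 1.40 ± 0.21. For both stress genes the third siLincP21 array was the highest, and both calls were lost without siScramble replicate 1 (adjusted p = 0.0554 for Trib3 and 0.0512 for Chac1). The remaining genes of the 12 highest were Taf9b, which is related to a subunit of a general transcription factor (1.33), Tent5a, a poly(A) polymerase (1.33), Scara3, a scavenger receptor (1.24), Nme4, a mitochondrial nucleoside diphosphate kinase (1.23), and the chemokine Cxcl15 (1.22). A second probe set of Taf9b gave 0.06 and one of Cxcl15 gave 0.36, both dim ones below the filter on low values.

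The 12 genes with the largest falls likewise had varied functions. Penk, which encodes the opioid precursor proenkephalin, had log2 signals of 6.85, 7.95 and 7.05 with siLincP21 and 8.82 and 8.96 with siScramble. It fell by 1.61 (SE 0.29, adjusted p = 0.00699), and the second siLincP21 array lay closest to the controls. The call for Penk was lost without siScramble replicate 1 and without siScramble replicate 2, with adjusted p up to 0.0608. Mbnl3, a splicing regulator of the muscleblind family, fell by 1.57 (SE 0.14), from 7.53 and 7.56 to 5.94, 6.28 and 5.70, and its other probe sets gave -0.62 and -0.46. Serpinb2, an inhibitor of plasminogen activators, fell by 1.43 (SE 0.19), from 6.47 and 6.84 to 5.17, 4.86 and 5.63. Dynap fell by 1.43 (SE 0.15), from 5.88 and 5.97 to 4.18, 4.81 and 4.48. By the rule of choice the siLincP21 and siScramble arrays do not overlap for any of these genes.

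Cystm1 fell by 1.57 (SE 0.13), from 9.91 and 9.94 to 8.09, 8.63 and 8.33, whereas its second, much dimmer probe set gave -0.19. Snn, which encodes the small membrane protein stannin, fell by 1.44 (SE 0.13), and Flacc1 by 1.32 (SE 0.11), while a dim second probe set gave 0.02 for Flacc1. The others were Bex1 (-1.20), the S100 protein gene S100a3 (-1.14), Gchfr, a feedback regulator of tetrahydrobiopterin synthesis (-1.13), Cdc42se2, an effector of the GTPase Cdc42 (-1.12), and the chemokine Ccl9 (-1.08). For Bex1 the 2 control arrays were 7.61 and 6.58, further apart from each other than the 3 siLincP21 arrays at 5.74, 5.96 and 5.98. Of the 12 highest genes 10, and of the 12 lowest 11, kept their call under each of the 12 alternatives in processing and left-out arrays, the exceptions being Trib3, Chac1 and Penk.

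**Figure D1:**
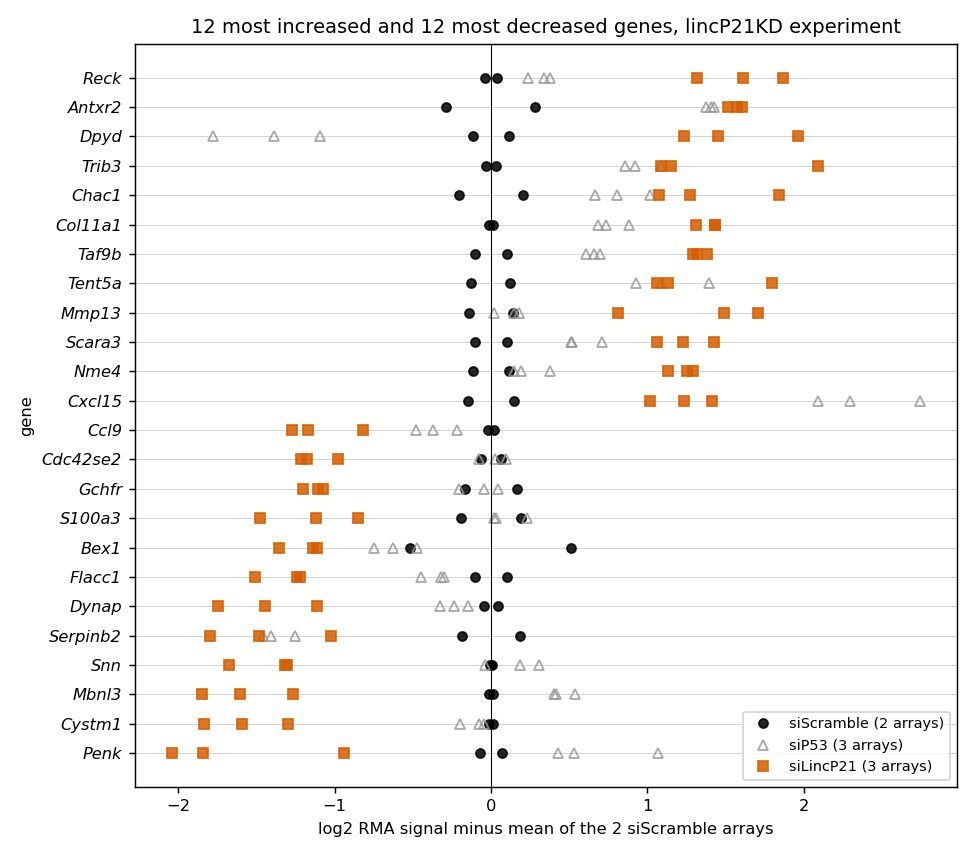
Each row is a gene, and each point is 1 array, as log2 signal minus the mean of the 2 siScramble arrays (x axis): siLincP21 as orange squares, siScramble as black circles, siP53 as grey triangles. The genes are the 12 highest and 12 lowest called ones, so the gap between squares and circles is part of how they were chosen. Dpyd, at 1.55 with siLincP21, lies on the opposite side of 0 with siP53, at -1.41.

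Among genes of the response to misfolded protein and amino acid shortage, called members were all higher. Cells under such stress make the transcription factor ATF4, which raises amino acid transporters and enzymes that make amino acids. Of 32 tested members of this list, 13 rose, 0 fell and 19 did not pass the test, against 7.47% and 4.39% of all genes, and the list's median difference was 0.24 against 0.011 over all genes. The number that rose was 6 without siScramble replicate 1 and 10 without siScramble replicate 2. Asns, asparagine synthetase, had log2 signals of 11.99, 11.88 and 12.02 with siLincP21 and 11.19 and 11.27 with siScramble, and rose by 0.73 ± 0.08 (adjusted p = 0.000883). Slc7a5, the light chain of a large neutral amino acid transporter, rose by 0.94 ± 0.11, from 8.74 and 8.95 to 9.79, 9.77 and 9.80. Ddit3, which encodes the stress transcription factor CHOP, rose by 0.62 ± 0.08, from 10.03 and 10.12 to 10.69, 10.63 and 10.76. These genes were named for their small adjusted p, which favours close agreement within the groups. Shmt2, a mitochondrial enzyme of serine and glycine metabolism, rose by 0.65 ± 0.09, and Sel1l, part of the machinery that degrades misfolded protein from the endoplasmic reticulum, rose by 0.56 ± 0.07. Hspa5, the main chaperone of that compartment, rose by 0.28 ± 0.08 (adjusted p = 0.0429), and is named here after its value was seen. Slc7a11, the cystine transporter, was at 5.90, 5.60 and 5.97 against 5.72 and 5.37, a difference of 0.28 ± 0.13 that did not pass the test (adjusted p = 0.217).

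The promoters of some of these genes hold the letters TGATGNAA, the core of the amino acid response element that ATF4 is known to bind. They are shown because this list had the largest share of members that rose among the lists in the plot of called list members. The search covered the 250 bases before the start, in RefSeq's annotation of GRCm38.p6 and on both strands, with a chromosome left out. The motif was found in 5 of the 31 members with a sequence searched. It was found in 2.36% of the 10232 tested genes with a sequence searched and in 3.45% of the 32851 windows searched. Of the 12 members that rose and have a sequence, 2 held it, Chac1 and Asns, and the other 3 were Slc7a11, Atf3 and Herpud1, which did not pass the test. The motif was thus seen both in members that rose and in members that were not called. Each line gives 100 bases, 5′ to 3′ on the gene's own strand, with the motif or its reverse complement in capitals: Chac1 lies at chr2:119351003-119351102 on the plus strand, Asns at chr6:7693210-7693309 on the minus strand and Slc7a11 at chr3:50443626-50443725 on the minus strand.
Chac1: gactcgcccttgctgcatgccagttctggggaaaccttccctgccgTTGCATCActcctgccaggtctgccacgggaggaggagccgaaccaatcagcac
Asns: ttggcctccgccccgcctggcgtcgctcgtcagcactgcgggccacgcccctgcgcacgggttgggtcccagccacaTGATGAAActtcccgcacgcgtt
Slc7a11: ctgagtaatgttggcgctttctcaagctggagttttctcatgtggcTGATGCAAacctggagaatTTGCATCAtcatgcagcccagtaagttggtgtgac

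Extracellular matrix genes were another group with many rises. Of 46 tested members 13 rose and 1 fell, with a median difference of 0.11, against 7.47% higher and 4.39% lower over all genes. Without siScramble replicate 1, and likewise without siScramble replicate 2, 6 rose. Mmp14, a membrane-anchored collagenase, rose by 0.85 ± 0.11, from 12.03 and 12.05 to 12.97, 12.69 and 13.00. Fbn2, a fibrillin of elastic microfibrils, rose by 0.90 ± 0.12, and Fbln5, which organises elastic fibres, by 0.68 ± 0.08. Col3a1, an interstitial collagen chain, rose by 0.78 ± 0.10, from 12.81 and 12.59 to 13.49, 13.37 and 13.57. Together with Reck and Mmp13, both structural components and regulators of their breakdown were thus among the genes that rose. Col1a1, the main collagen chain of fibroblasts, rose by 0.43 ± 0.08 on the deposited scale, a call that was lost without siScramble replicate 1 or 2 and with the mean of its probe sets (adjusted p up to 0.128). Thbs1, the adhesive glycoprotein thrombospondin, was the single called member in the other direction (-0.88 ± 0.14) and was named after its value was seen. Markers of fibroblasts moved with this group: 5 of 17 rose and 0 fell, and their summed log2 level was 189.5 to 191.1 on the siLincP21 arrays and 185.4 to 186.5 on the siScramble arrays. The list shares Col1a1, Col3a1, Col6a1 and Dcn with the matrix genes and adds Pdgfrb, a growth factor receptor (0.94 ± 0.17, call lost without siScramble replicate 2 at an adjusted p of 0.0737). The number of fibroblast markers that rose was 2 without siScramble replicate 1 and 1 without siScramble replicate 2. Summed levels of other marker lists also lay apart between the groups: epithelial 48.3 to 49.2 with siLincP21 and 50.3 to 50.5 with siScramble, skeletal muscle 32.5 to 33.3 and 34 to 34.2, chondrocyte 56.9 to 57.4 and 58.0 to 58.1, and neural 83.6 to 84.9 and 82.2 to 82.4. Of these lists 1 of 8, 2 of 6 and 1 of 10 tested members fell in the first 3, and 2 of 13 neural markers rose. Endothelial markers summed to 39.4 to 39.9 and 39.7 to 40, and adipocyte markers to 32.2 to 33.3 and 32.0 to 32.5, with overlap. The part of cell composition in these changes was not tested.

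Immediate early genes, which growth factor and stress signals switch on within minutes, were more often lower. Of 35 tested members 9 fell and 1 rose, with a median of -0.13. The number that fell was 2 without siScramble replicate 1 and 3 without siScramble replicate 2. Dusp5, a phosphatase that acts on ERK, fell by 0.87 (SE 0.08, adjusted p = 0.000388), from 8.51 and 8.45 to 7.59, 7.59 and 7.63. Fos, a subunit of the AP-1 transcription factor, fell by 0.59 (SE 0.09), from 8.24 and 8.15 to 7.53, 7.68 and 7.60. Nr4a2, an orphan nuclear receptor, fell by 0.65 (SE 0.11) and Dusp6, another ERK phosphatase, by 0.44 (SE 0.08). Without siScramble replicate 1 the adjusted p was 0.0608 for Fos and 0.0896 for Nr4a2, and the call for Dusp6 was lost without either control array (up to 0.0768). Spry1, an inhibitor of growth factor receptor signalling, went the other way and rose by 1.21 ± 0.20, from 7.60 and 7.47 to 8.72, 8.35 and 9.17, a call lost without siScramble replicate 2 (adjusted p = 0.0526).

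Inflammatory genes moved in both directions, with 3 of 23 higher and 6 lower. Beside Mmp13, the monocyte chemokine Ccl2 fell by 0.49 (SE 0.08), from 12.83 and 12.86 to 12.27, 12.35 and 12.44, and the cytokine Lif fell by 0.67 (SE 0.14). Without siScramble replicate 1 the number that fell was 0, without siScramble replicate 2 and without siLincP21 replicate 1 it was 1, and the adjusted p for Ccl2 without siScramble replicate 1 was 0.0508 (up to 0.108 for Lif). Macrophage markers were near background, with 9 of 16 listed genes below the filter and a summed log2 level of 41.2 to 42.4 with siLincP21 and 41.5 to 41.6 with siScramble.

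**Figure D2:**
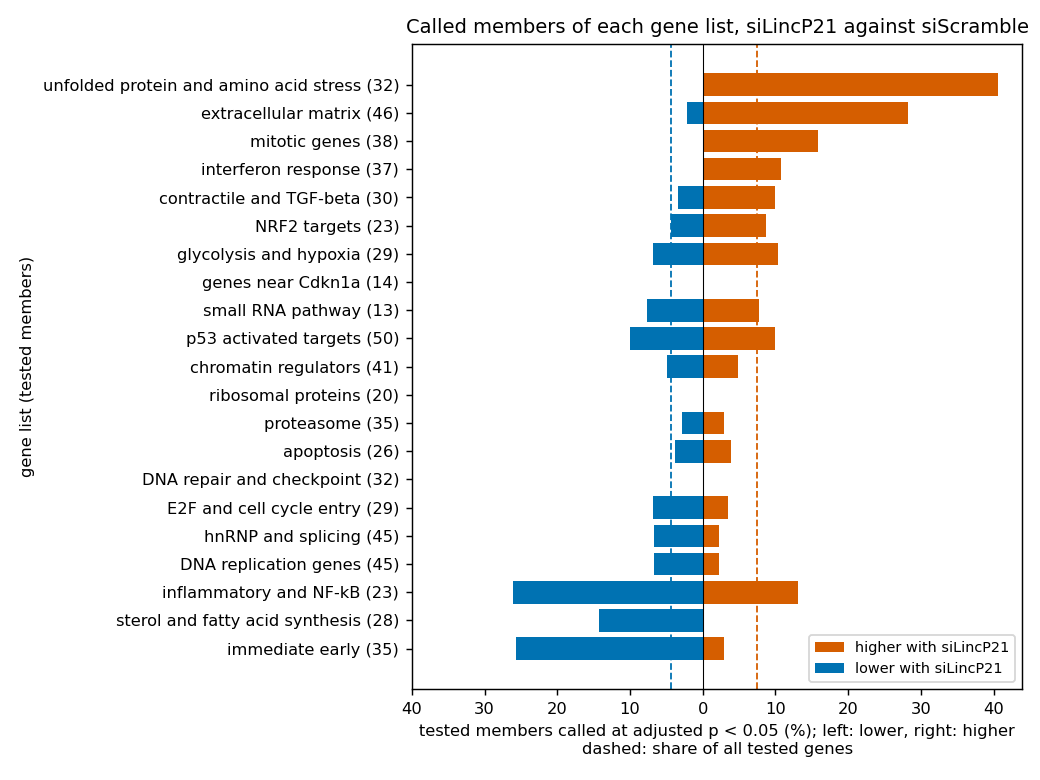
Bars give the percent of tested members of each gene list, marker lists of cell types and lists under 10 tested genes left out, that were called higher (orange, right) or lower (blue, left) with siLincP21 against siScramble; the number of tested members stands after each name, and dashed lines mark the shares over all genes, 7.47% and 4.39%. Among the lists drawn, the bars reach furthest to the right for amino acid stress (13 of 32) and matrix (13 of 46), and to the left for inflammatory (6 of 23) and immediate early genes (9 of 35).

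Genes of sterol and fatty acid synthesis were called in 1 direction, with 4 of 28 lower and 0 higher and a median of -0.19. Fdps, an enzyme of the mevalonate pathway, fell by 0.49 (SE 0.09), from 11.51 and 11.53 to 11.04, 11.11 and 10.96. Srebf2, the transcription factor that controls the pathway, fell by 0.38 (SE 0.08), Stard4, a sterol carrier, by 0.63 (SE 0.16) and the fatty acid elongase Elovl6 by 0.59 (SE 0.16). This count moved with the settings: it was 0 without siScramble replicate 1, 1 without siScramble replicate 2, 1 without siLincP21 replicate 1 and 13 with the replicate number as a block.

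Mitotic genes leaned upward with small differences: 6 of 38 rose, 0 fell and the median was 0.19. Nek2, a kinase of centrosome separation, rose by 0.61 ± 0.08 (adjusted p = 0.00204), from 8.87 and 8.78 to 9.42, 9.37 and 9.52. Aurkb, the kinase of the chromosomal passenger complex, rose by 0.60 ± 0.14, and the kinetochore gene Nuf2 by 0.46 ± 0.11, and both calls were lost without either control array, siLincP21 replicate 1 or siLincP21 replicate 2 (adjusted p up to 0.198 and 0.205). Between 1 and 2 members rose without siScramble replicate 1, siScramble replicate 2, siLincP21 replicate 1 or siLincP21 replicate 2, and 13 rose with the replicate block. Genes of DNA replication (1 of 45 higher, 3 lower) and of the E2F programme (1 of 29 higher, 2 lower) had medians of 0.02 and 0.01. Rfc1, the large subunit of the replication clamp loader, stood apart from these with a rise of 1.15 ± 0.12, from 8.13 and 8.48 to 9.34, 9.38 and 9.65. Its other probe sets gave 1.20 and 0.99.

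Most other lists had shares of calls near or below those of all genes. In DNA repair and checkpoint genes 0 of 32, and in ribosomal protein genes 0 of 20, were called in either direction. Interferon response genes had 4 of 37 higher and 0 lower, led by the guanylate-binding protein gene Gbp2 (0.75 ± 0.14), and 0 of these calls were left without siScramble replicate 1. Apoptosis genes had 1 of 26 higher and 1 lower, chromatin regulators 2 of 41 in each direction, and hnRNP and splicing genes 1 of 45 higher and 3 lower, led by Mbnl3 and by Ptbp2, a regulator of neuronal splicing (-0.54 ± 0.11). The call for Ptbp2 was lost without siScramble replicate 1 (adjusted p = 0.134). In the small RNA pathway 2 of 13 were called: Prkra, an activator of the kinase PKR that also binds Dicer, rose by 0.51 ± 0.08, and Tarbp2, another Dicer partner, fell by 0.80 (SE 0.14). Neither call held throughout: both were lost without siScramble replicate 1, and that of Tarbp2 also without siScramble replicate 2 (adjusted p up to 0.0622). With the mean of its probe sets, of which the second is below the filter and gave -0.10, Prkra differed by 0.20 (adjusted p = 0.117). Of 13 neural markers 2 rose, Map2, a microtubule-associated protein (1.15 ± 0.09), and Tubb3, a tubulin (1.02 ± 0.12), and in the epithelial list the keratin gene Krt18 fell by 0.72 (SE 0.09).

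Genes that p53 activates did not move together with siLincP21. Of 50 tested targets 5 rose and 5 fell, and their median was 0.03. Cdkn1a, the best known of them, had log2 signals of 12.66, 12.57 and 12.52 with siLincP21 and 12.48 and 12.68 with siScramble. The difference of 0.01 ± 0.11 (adjusted p = 0.98) lay within the gap between the 2 control arrays. Dyrk3, a kinase that dissolves stress granules, fell by 1.06 (SE 0.14), from 7.15 and 7.13 to 6.16, 6.01 and 6.07, and Rrm2b, the p53-inducible subunit of ribonucleotide reductase, fell by 0.57 (SE 0.08). Ei24 fell by 0.47 (SE 0.07). Perp, an adhesion protein of desmosomes, fell by 0.53 (SE 0.11), and this call was lost without siScramble replicate 2 (adjusted p = 0.124). Pltp, a phospholipid transfer protein, rose by 0.47 ± 0.09, a call lost without either control array (up to 0.101). The number of these targets that rose was 1 without siLincP21 replicate 1, 1 without siLincP21 replicate 3, 0 without siScramble replicate 1 and 1 without siScramble replicate 2.

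Neighbours of Cdkn1a were examined because lincRNA-p21 is transcribed close by. Of 14 tested genes listed for this region 0 were called in limma's fit, against 11.9% of all genes. At that share few calls would be seen among 14 genes, so the 0 says little about the region. The nearest 5 tested genes on each side, in RefSeq's gene order, were likewise not called. Srsf3, a splicing factor beside Cdkn1a, had values of 12.45, 12.53 and 12.53 against 12.79 and 12.73, a difference of -0.26 ± 0.08 (adjusted p = 0.0725). Ppil1, a peptidyl-prolyl isomerase of the spliceosome, differed by -0.53 ± 0.20 (adjusted p = 0.117), with 9.02 on the third siLincP21 array and 9.74 and 9.79 on the others. Hnrnpk, the gene of the partner protein, had values of 12.80, 12.92 and 12.97 against 12.97 and 12.89, a difference of -0.04 ± 0.11 (adjusted p = 0.881). Some neighbours of Cdkn1a were called with siLincp21 in the hnRNPKKD experiment. Kctd20 (0.35) and Stk38 (0.34) were higher there, and Srsf3 (-0.59) and Ppil1 (-0.75) were lower. In the list of 14 genes 2 were higher and 2 lower there, against 17.2% and 11.8% of all genes.

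The siP53 arrays of the same experiment differed from siScramble in 1615 genes (12.7%), of which 888 were higher (7.01%) and 727 lower (5.74%). This comparison shares its control arrays with that of siLincP21, so their values are given side by side and the difference was tested directly between the 2 siRNAs. In that direct test 2590 genes differed (20.4%), 1422 higher (11.2%) and 1168 lower (9.22%) with siLincP21. Cdkn1a was at 10.53, 10.31 and 10.68 with siP53, and was higher with siLincP21 by 2.08 (adjusted p = 1.7e-06). Of the 50 p53 targets 38 were higher with siLincP21 than with siP53 and 2 were lower, against 11.2% and 9.22% of all genes, and against siScramble 36 of them fell with siP53, against 5.74% of all genes.

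The genes that were highest with siLincP21 relative to siP53 were Dcxr, a sugar reductase (3.16), Dpyd (2.97), Celf5, an RNA-binding protein (2.85), Acaa1b, an enzyme of peroxisomal fatty acid oxidation (2.69), Cox6b2, a cytochrome oxidase subunit (2.34), and Tbc1d8 (2.32). Except for Dpyd, none of these 6 was called with siLincP21 against siScramble. Dpyd was called in both comparisons with siScramble, higher with siLincP21 and lower with siP53, where it stood at 4.54, 4.93 and 5.22. The lowest were Penk (-2.28), the interferon-induced gene Ifit1 (-2.21), the microfibril gene Mfap5 (-2.07), Mbnl3 (-2.02), and the interferon-induced genes Oasl2 (-1.94) and Usp18 (-1.79). Ifit1 stood at 6.02, 6.05 and 5.89 with siLincP21, 5.53 and 6.00 with siScramble, and 7.69, 8.48 and 8.43 with siP53. Of the interferon list 24 of 37 rose with siP53, against 7.01% of all genes, and 4 with siLincP21, against 7.47%.

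Sterol genes differed between the siRNAs as well. With siP53 16 of 28 rose, while 4 fell with siLincP21, and in the direct test Fdps was lower with siLincP21 by -1.17 (adjusted p = 1.5e-05) and Elovl6 by -1.41 (adjusted p = 0.00015). Of the 32 amino acid stress genes 13 rose and 0 fell with siLincP21, 9 rose and 1 fell with siP53, and in the direct test 7 were higher and 2 lower with siLincP21. Asns rose with both siRNAs, by 0.73 and 0.43, and was 0.30 higher with siLincP21 in the direct test (adjusted p = 0.014). Outside this list, Rfc1, Tubb3 and Fbn2 also rose with siP53, by 1.03, 0.88 and 1.11. Their direct differences of 0.12, 0.14 and -0.21 did not pass the test (adjusted p = 0.472, 0.398 and 0.212). The direct difference for Trib3, 0.49, did not pass the test (adjusted p = 0.144). Immediate early genes fell with siP53 too: 9 of 35 fell and 0 rose, with a median of -0.13. In the direct test 4 of them were higher and 4 lower with siLincP21. Matrix genes had 9 of 46 higher and 2 lower with siP53, with a median of 0.10, and 9 higher and 6 lower in the direct test. Of the fibroblast markers 5 of 17 rose and 0 fell with siP53. Over all genes 7.01% rose and 5.74% fell with siP53.

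**Figure D3:**
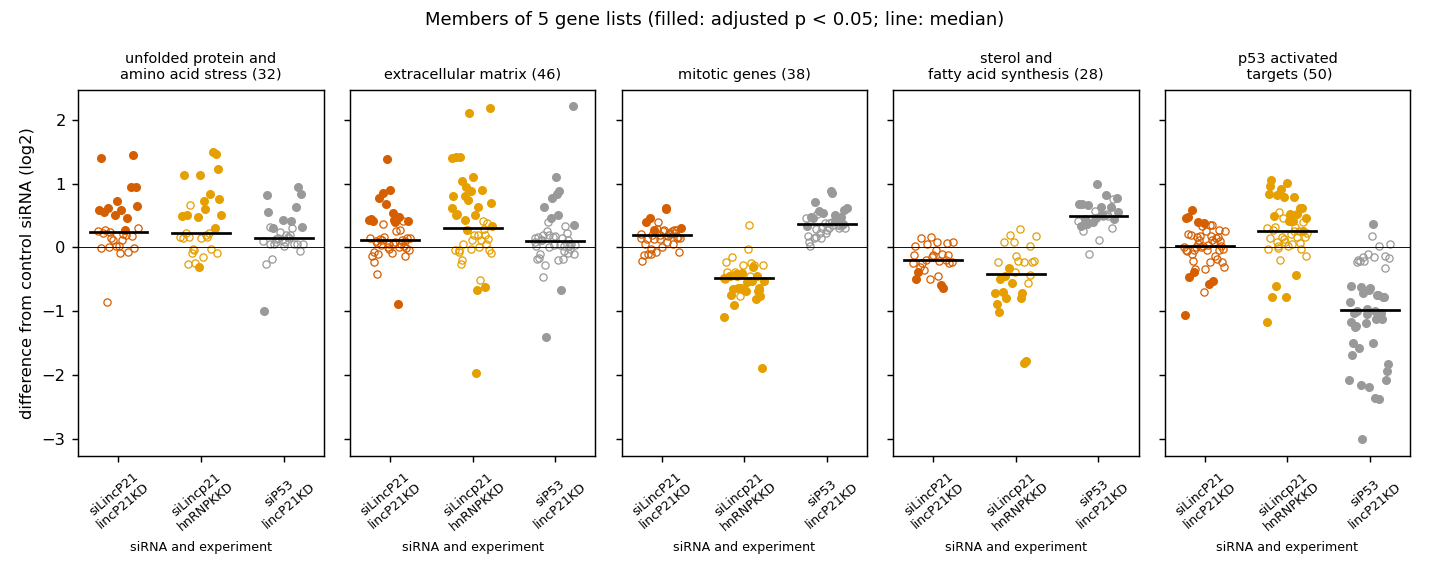
Each point is a tested member of a gene list (number in brackets), as log2 difference from the control siRNA, for siLincP21 and siP53 in the lincP21KD experiment, which share their control arrays, and for siLincp21 in the hnRNPKKD experiment; filled points passed the test and black lines are medians. The p53 targets have medians of 0.03, 0.26 and -0.98 in the order siLincP21, siLincp21 and siP53, and the mitotic genes 0.19, -0.48 and 0.36.

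The siRNA against lincRNA-p21 was also used in the hnRNPKKD experiment, with its own 3 knockdown and 3 control arrays, and the labels do not say whether the oligos were the same. There 3678 genes (29%) were called, 2179 higher (17.2%) and 1499 lower (11.8%). Of the 1503 calls of the lincP21KD experiment 946 were called in the same direction there, which is 62.9% of them and 25.7% of the hnRNPKKD calls, and 22 were called in the opposite direction. Of these shared calls 615 were higher and 331 lower in both. With fewer arrays fewer calls were shared: 138 higher and 73 lower without siScramble replicate 1, 287 and 96 without siScramble replicate 2, and 374 and 165 without siLincP21 replicate 1. Of the 615 shared rises 390 were also higher with siP53 in the hnRNPKKD experiment, against 19.3% of all genes. In the lincP21KD experiment 36.3% of the 947 rises also rose with siP53, and 23% of the 556 falls also fell. Over all genes these shares were 7.01% and 5.74%. Each of these siP53 comparisons shares its control arrays with that of the lincRNA-p21 siRNA. Over all 12674 genes the 2 sets of differences had a Pearson correlation of 0.60 and a Spearman correlation of 0.54. These are across genes, which are not independent replicates, and the 2 experiments share the cells, the target and the array design but no array.

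Reck stood at 9.64, 9.47 and 9.77 against 7.81, 7.52 and 7.65 in the hnRNPKKD experiment, a rise of 1.97 there beside 1.60 here. Penk fell in both experiments and there it fell by 1.83, from 11.05, 11.18 and 11.19 to 9.38, 9.49 and 9.05. Other genes with large shared changes were Nme4 (1.23 here and 2.72 there), Col11a1 (1.39 and 2.10), Taf9b (1.33 and 2.06), Pcx, the pyruvate carboxylase that feeds the citric acid cycle (1.15 and 2.42), Mreg (0.73 and 2.58) and Krt18 (-0.72 and -3.02). The call for Mreg in the lincP21KD experiment was lost without siLincP21 replicate 1, siLincP21 replicate 2 or either control array (adjusted p up to 0.147). Of the amino acid stress list 13 members rose here and 14 there, and of the matrix list 13 here and 22 there, against 7.47% of all genes here and 17.2% there.

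The size of the change differed between the experiments for 1032 genes (8.14%) in a direct test, being higher here for 445 (3.51%) and lower for 587 (4.63%). The largest difference among the genes named was that of Krt18, 2.30 (adjusted p = 3.3e-07). It fell from 6.20 and 6.11 to 5.41, 5.49 and 5.41 here, and from 7.88, 7.77 and 8.05 to 4.90, 4.74 and 5.01 there. From the control levels here a fall as large as that there could hardly be seen above background. Krt18 was also low there with siHnrnpk (4.85, 4.87 and 5.27) and with siP53 (4.68, 4.84 and 4.69), against the same controls. Mmp13 went in opposite directions, rising here by 1.33 and falling there by 0.55, from 11.20, 10.92 and 10.91 to 10.53, 10.39 and 10.46. Levels of the 2 experiments are not on a common scale, and only the changes were compared. Dcn, the matrix proteoglycan decorin, likewise rose here by 0.43 and fell there by 0.66, although the call here was lost without either control array or with the mean of the probe sets (up to 0.147). Dynap fell by 1.43 here and differed by 0.01 there. For some lists the medians of the 2 experiments had opposite signs. Mitotic genes had 0.19 here and -0.48 there, where 24 of 38 fell and 0 rose (11.8% and 17.2% of all genes there). NRF2 targets, which protect against oxidants, had 0.16 and -0.20, and DNA replication genes 0.02 and -0.33. Immediate early genes had -0.13 here and 0.08 there, where 7 of 35 rose and 11 fell, against 17.2% and 11.8% of all genes there. In the direct test of the difference 28 of 38 mitotic genes and 9 of 45 DNA replication genes were higher here. Only 1 of 23 NRF2 targets was higher, and 0 members of these 3 lists were lower. Of the immediate early genes 3 were higher and 5 lower. Medians of opposite sign are thus not by themselves a difference between the experiments. For the kinetochore gene Ndc80 both were called, 0.30 here and -0.53 there, but the call here was lost under 9 of the 12 alternatives.

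**Figure D4:**
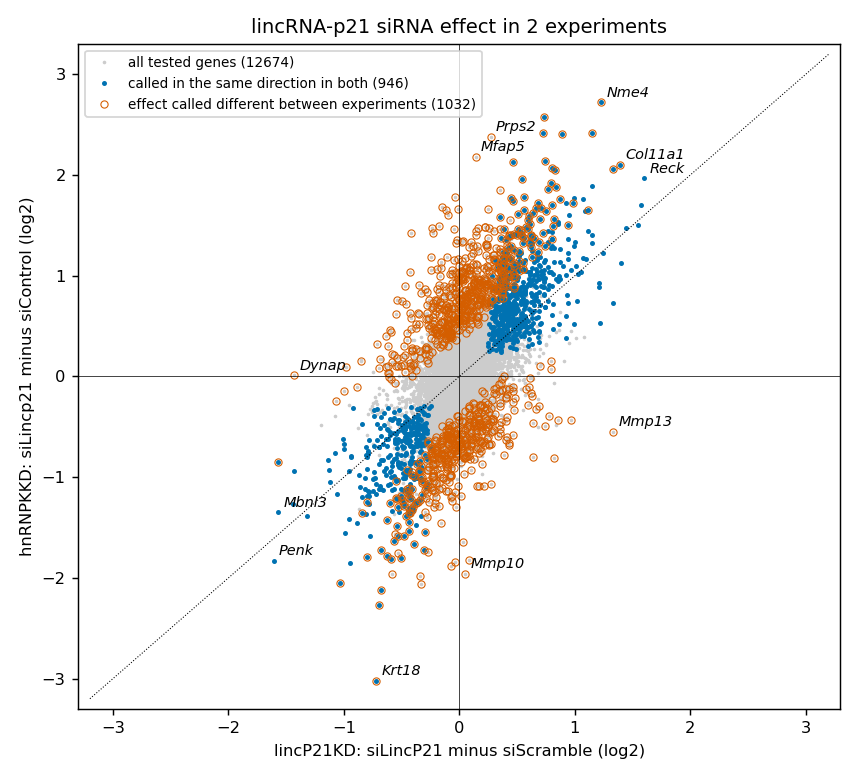
Each point is a tested gene, with the log2 difference for siLincP21 against siScramble in the lincP21KD experiment on the x axis and for siLincp21 against siControl in the hnRNPKKD experiment on the y axis. Blue points are the 946 genes called in the same direction in both, orange rings the 1032 genes whose change differed between the experiments, and the dotted line marks equal change. Reck and Penk lie near that line, whereas Mmp13 and Dynap lie away from it.

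Gene sets defined on arrays outside the lincP21KD experiment show where its calls fell. In the hnRNPKKD experiment 38.6% of the genes were called with siP53, 2450 higher (19.3%) and 2438 lower (19.2%). With siHnrnpk 26.9% were called, 1783 higher (14.1%) and 1625 lower (12.8%). These sets share the 3 control arrays of that experiment with each other but none with siLincP21 and siScramble. Of the genes that rose with siP53 there, 20.1% rose with siLincP21 and 3.76% fell, and of those that rose with siHnrnpk 18.5% rose and 2.8% fell. These rises are 492 and 330 genes, and they were 119 and 88 without siScramble replicate 1, 236 and 176 without siScramble replicate 2, and 319 and 221 without siLincP21 replicate 1. Of the genes that fell with siP53, 3.73% rose and 7.71% fell, and of those that fell with siHnrnpk 6.22% rose and 10.6% fell. Over all genes the shares were 7.47% and 4.39%.

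In the time course 19.1% of the genes were called between AdenoCre and AdenoGFP, over 5 pairs of arrays matched in time. Of these, 1636 were higher (12.9%) and 791 lower (6.24%) with AdenoCre. Of the genes lower with AdenoCre, 16.1% rose with siLincP21 (127 genes, but 34 or 57 without siScramble replicate 1 or 2 and 84 without siLincP21 replicate 1) and 6.07% fell, and of those higher with AdenoCre 9.47% rose and 7.03% fell. Over all genes the differences with AdenoCre and with siLincP21 had a Pearson correlation of -0.06 and a Spearman correlation of 0.01. They had the same sign for 51.7% of genes. The genes named next were picked for large changes with siLincP21 among those called in both comparisons. Dynap, Serpinb2, Snn and Cystm1 were higher with AdenoCre (1.08, 1.15, 0.57 and 0.74) and fell with siLincP21. Trib3 and Chac1 were lower with AdenoCre (-1.04 and -0.54) and rose. Other large changes had 1 direction in both: Nme4 and Cmtm6 were higher with AdenoCre (0.83 and 0.39) and rose with siLincP21, and Mbnl3, Bex1, Hpgd and Sspn were lower and fell. For Sspn the fall with siLincP21 was lost as a call without siScramble replicate 1 (adjusted p = 0.0508). The 406 genes that were lower with AdenoCre and rose with siP53 form the set that was lower with p53 in both measurements, although AdenoCre and AdenoGFP differ in more than p53. Of these, 94 rose with siLincP21 (23.2%) and 22 fell (5.42%), with a median of 0.143. Leaving out siScramble replicate 1 or 2 changed the number that rose to 28 or 42.

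A smaller set was lower with AdenoCre and rose with both siP53 and siHnrnpk in the hnRNPKKD experiment. It held 58 genes and was put together with these data in view. Of these 32 rose with siLincP21 (55.2%), 0 fell, and the median difference was 0.426 against 0.011 over all genes. This number was 13 without siScramble replicate 1 and 20 without siScramble replicate 2. Trib3, Chac1, Rfc1 and Tubb3 led this set, followed by Slc7a5. Tgfbr3, a co-receptor for TGF-beta (0.80 ± 0.09), and Ednrb, a receptor for endothelins (0.79 ± 0.11), were named after their values were seen. Ednrb rose from 6.43 and 6.63 to 7.37, 7.39 and 7.19. The set thus holds members of the amino acid stress list and single genes of other functions.

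**Figure D5:**
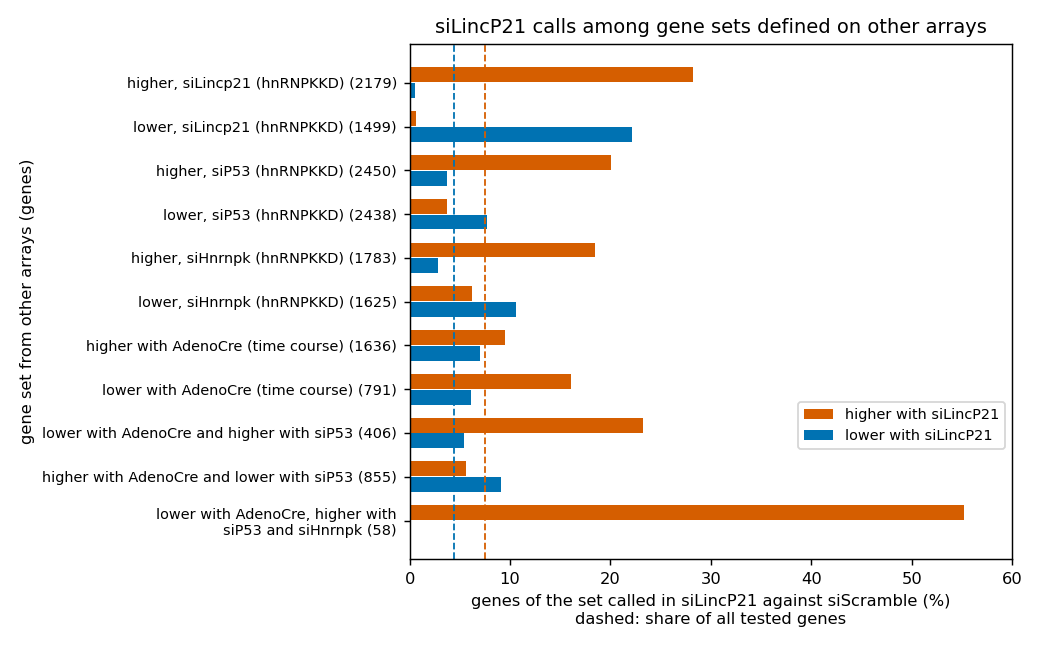
For each gene set defined on arrays outside the lincP21KD experiment (number of genes in brackets), bars give the percent called higher (orange) or lower (blue) with siLincP21 against siScramble, and dashed lines mark 7.47% and 4.39%, the shares over all genes. The sets from the hnRNPKKD experiment share control arrays with each other. The bar for the set of 58 genes reaches 55.2%, and that for genes higher with siLincp21 in the hnRNPKKD experiment 28.2%.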

How the data were processed

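RNA was measured on Affymetrix arrays. The deposited values are log2 signals that the authors made with RMA, per the submitters' processing notes. Its version is not stated in the sources used. They were used without further scaling. Of 45101 probe sets, 34958 had 1 gene symbol, 932 several and 9211 none, and 34754 of the single-gene ones matched a current gene. For each of 18194 genes the probe set brightest on average over 30 arrays was used, and the lowest 40% of probe sets (below a log2 value of 4.544) were left out, which left 12674 genes.

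limma 3.58.1 (lmFit, eBayes; R 4.3.3) was used for all fits and tested on simulated data. All 8 arrays of the lincP21KD experiment, siP53 included, shared 1 estimate of the spread; the hnRNPKKD experiment (12 arrays) and the time course (10 arrays, time as a block) were fitted separately, and the difference between the experiments in a joint fit of 20 arrays. P-values were adjusted by Benjamini-Hochberg over all tested genes and called at 0.05. The number of arrays limits the precision, and the median standard error was 0.097.

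The arrays, comparisons and gene lists were chosen with earlier results of these data known. Genes were named by rule: Cdkn1a and Hnrnpk, the 12 called genes that rose most and the 12 that fell most, with arrays not overlapping, per list up to 5 members of smallest adjusted p, the 8 largest changes shared with the hnRNPKKD experiment, the 6 largest differences between the experiments, the 6 highest and 6 lowest genes against siP53, and the 6 largest changes opposite to and along with the time course, predicted genes passed over. Hspa5, Slc7a11, Atf3, Herpud1, Thbs1, Tgfbr3, Ednrb and the neighbours of Cdkn1a outside its list stand outside this rule. Pairing of siLincP21 with siScramble arrays by replicate number was not seen: deviations from the group means of arrays with the same number correlated at 0.031 and 0.127. The labels give no shared culture or day. With 2 siScramble arrays their 2 deviations mirror each other, so this check cannot exclude a pairing. For siLincP21 with siP53 arrays of the same experiment the correlations were 0.212, 0.054 and 0.341. Only siHnrnpk and its controls had all pairs over 0.1 (0.216, 0.166 and 0.209). Alternatives were quantile normalization, median centring, no filter, the mean of a gene's probe sets, trended and robust variances, the replicate block, a fit of only the groups compared, and each array left out.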

Additional observations from a re-analysis of the deposited data

Results flagged for a closer look

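The change with siRNA against lincRNA-p21 differed between the lincP21KD and the hnRNPKKD experiment for 1032 genes in limma's test of the difference itself (adjusted over all tested genes). Values below are the log2 change in the lincP21KD experiment minus that in the hnRNPKKD experiment, for the 6 called genes with the largest absolute difference. It was 2.30 for the keratin gene Krt18, which fell in both experiments. From its control levels in the lincP21KD experiment a fall as large as that in the hnRNPKKD experiment could hardly be seen above background. The difference was 2.02 for the matrix metalloproteinase gene Mmp10, which fell by 1.96 in the hnRNPKKD experiment and differed by 0.05 in the lincP21KD experiment. It was 1.90 for Klhl1, which fell by 1.82 there and differed by 0.08 here. Klhl1 is dim, with a mean of 4.55 over all arrays against a filter of 4.544 and knockdown arrays there at 4.31, 4.48 and 4.26, so its folds are bounded by background and a fall could hardly be seen here, where the controls stood at 4.80 and 4.89. The difference was 1.88 for Mmp13, which rose here and fell there. It was -2.11 for Prps2, an enzyme of nucleotide synthesis, which rose by 2.38 there and differed by 0.27 here. It was -2.04 for Mfap5, which rose by 2.18 there and differed by 0.14 here, and of its controls there 1 array stood at 7.02 and the others at 5.48 and 5.61. In the hnRNPKKD experiment each of these 6 genes also moved in the same direction with siHnrnpk and with siP53, against the same control arrays. Klhl1 stood there at 6.55, 6.04 and 5.92 on the controls. It was at 4.88, 4.79 and 4.51 with siHnrnpk and at 3.97, 4.45 and 4.43 with siP53. Those changes are thus not particular to siLincp21. The control levels of these genes are not on a common scale between the experiments, and the cause of the differences was not tested.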

How the results depend on the processing

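With 2 control arrays, the count of siLincP21 calls depends most on them. It ranged from 1181 to 1765 under the alternatives in processing and from 286 to 1377 with an array left out (172 to 831 higher, 114 to 550 lower). No call turned into a call of the opposite direction under these settings, but each setting reused the same arrays, so this says little about stability. Without siLincP21 replicate 1, 784 of the 1503 calls remained. The replicate block gave 1476 calls (886 higher, 590 lower), and for siHnrnpk against its controls it gave 3824 in place of 3408. With an array left out, the other counts ranged from 1627 to 2345 for siLincP21 against siP53, 620 to 1313 for siP53 against siScramble, 2827 to 3081 for siLincp21 in the hnRNPKKD experiment, 388 to 898 for the difference between the experiments, 3821 to 6553 for siP53 and 2391 to 2918 for siHnrnpk there, and 1146 to 2055 for the time course (1444 without 6 h, 1511 without 9 h), which without its time block gave 1304. The cause of these shifts was not tested. Of 110 called genes among the 186 named by the rule, 46 kept their call under all 12 alternatives. Probe sets near background limit what can be said of dim genes.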
